A study of Mus musculus with 18 samples.

Results

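The comparison set spleen Id3- effector regulatory T cells against spleen Id3+ effector regulatory T cells. It took 3 libraries of each population, 6 of the 18 libraries of the series, from mice 84, 86 and 87. All genes of the count table entered, and 12445 of 37991 had enough counts to be tested. Libraries with the same mouse number came from the same animal, and the 3 replicates of a group were separate mice.

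Every group came from C57BL/6 littermates of an Id3-GFP x Foxp3-mRFP cross, in which green marks Id3 expression and red marks regulatory T cells (TR). The labels used here state no age. CD4+ cells were enriched on beads and sorted as live cells by CD4, CD44, CD62L and the 2 reporters, and each library was made from 500 cells. The Id3- effector TR (Id3- eTR) carry no further gate in their label. The Id3+ effector TR (Id3+ eTR) are labelled as low for CD62L and high for CD44. Central TR (Id3+ cTR), labelled as high for CD62L and low for CD44, and the same 3 populations of peripheral lymph node give further levels below. The libraries are bulk samples, so fewer cells that express a gene and less RNA per cell cannot be told apart.

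TR express the transcription factor Foxp3 and restrain immune responses. Id3 belongs to a family of proteins that pair with E proteins (encoded by Tcf3, Tcf4 and Tcf12) and keep them from binding DNA at E-box sequences. Central TR recirculate through blood and lymphoid organs much as naive T cells do, while effector TR have been activated, can enter other tissues and make more of the molecules used for suppression. The series title places changes of Id3 along a stepwise path of TR, and the comparison asks what separates the effector cells that lack the reporter from those that have it.

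In spleen, Id3- eTR had higher transcripts of receptors for inflammatory chemokines, of Il10 and granzyme B, and of the effector transcription factors Prdm1, Maf and Rora. They had lower transcripts of genes of resting and recirculating T cells (Tcf7, Lef1, Bach2, Satb1, Ccr7) and of Bcl2. By edgeR's quasi-likelihood test, 408 genes passed an adjusted p of 0.05, which is 3.28% of the genes tested. Of these, 190 were higher (1.53%) and 218 lower (1.75%) in Id3- eTR, and all 408 differed in the same direction in 3 of 3 mice. The calls rest on these same libraries and so favour genes on which the mice agree, which makes that agreement no separate replication. The change was at least 2-fold for 119 of the higher and 139 of the lower genes, and at least 4-fold for 62 and 68. The median log2 fold change of all genes tested was -0.01, and the median standard error (SE) was 0.31. Without Id3- eTR of mouse 87 the count was 267, and with the 6 libraries fitted alone it was 171, of which 153 were among the 408.

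**Figure D1:**
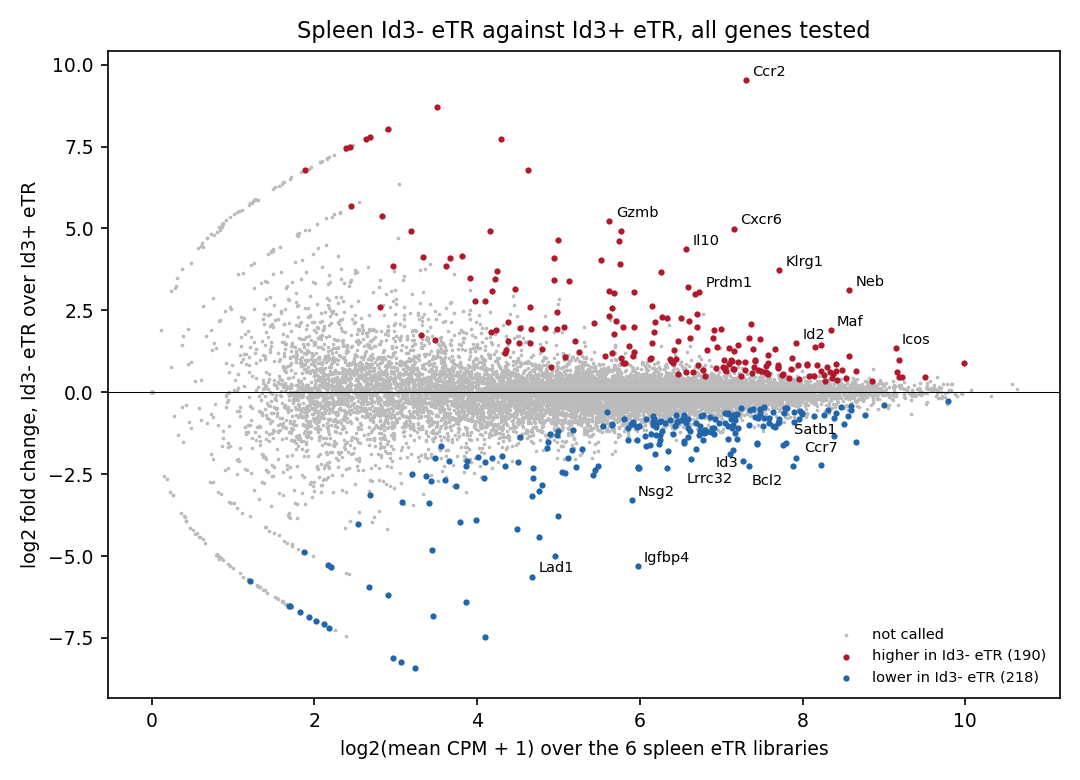
Each point is 1 of the 12445 genes tested, with log2(mean + 1) of its level in CPM over the 6 libraries on the x axis and its log2 fold change, Id3- eTR over Id3+ eTR, on the y axis. Red points (190) were called higher and blue points (218) lower in Id3- eTR, and the named genes lie at both ends.

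Levels are given in CPM, counts scaled to the effective library size. Library totals ran between 2164402 and 2853467 counts in Id3- eTR, and between 2439228 and 3153325 in Id3+ eTR. The Id3+ eTR library of mouse 84 stood apart from its group. Among 7100 genes whose log2 CPM averaged 5 or more, 427 lay more than 1 log2 unit above both other Id3+ eTR libraries in it, while no other of the 6 libraries had more than 20 such genes. It differed from each partner by 22.3 times the counting variance, against 6.6 to 8.02 times for the other pairs. Atp13a2, which encodes a lysosomal ATPase, is an example at 25.5, 21.7 and 16.0 CPM in Id3- eTR of mice 84, 86 and 87, and 182, 23.6 and 26.8 CPM in Id3+ eTR. Only the Id3+ eTR library of mouse 84 was high there, and the gene was not called. Without that library 368 genes were called, 196 higher and 172 lower, and 277 of them were among the 408. Each called gene of the naming rule and of the gene lists was refitted with single libraries left out and under the other settings. Of 104 such genes, 57 kept their call in every refit. The values given in full below belong to these 57, unless a lost call is stated.

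**Figure D2:**
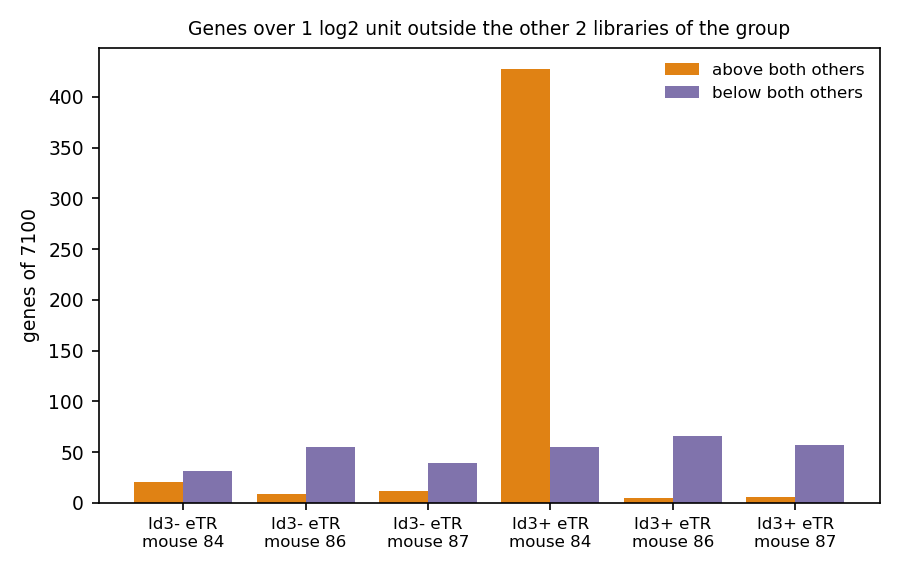
For each of the 6 spleen libraries, bars count the genes (of 7100, y axis) that lie more than 1 log2 unit above (orange) or below (purple) both other libraries of their group. Id3+ eTR of mouse 84 had 427 genes above, and the other libraries at most 20.

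The sort genes followed the gates. Id3 stood at 45.3, 70.2 and 60.1 CPM in Id3- eTR of mice 84, 86 and 87, and at 204, 261 and 277 CPM in Id3+ eTR. The groups did not overlap, and Id3 was lower by 2.09 ± 0.16 (log2, SE), with an adjusted p of 1.14e-06. Foxp3 averaged 270.3 ± 22.4 CPM in Id3- eTR and 289.6 ± 73.3 in Id3+ eTR (SD, n = 3 each), and Cd4 349.6 ± 12.2 and 348 ± 84.7. Neither was called, at log2 fold changes of -0.10 ± 0.14 and 0.01 ± 0.16. Cd44 averaged 212 ± 27.6 CPM in Id3- eTR and 137 ± 25.9 in Id3+ eTR and was not called (edgeR adjusted p = 0.179). Gates were set on these proteins and reporters, so their transcripts are no independent evidence of a difference.

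Id2, the other Id protein with a called difference, went against Id3. Its levels were 315, 394 and 361 CPM in Id3- eTR and 102, 121 and 156 CPM in Id3+ eTR, with no overlap. The log2 fold change was 1.497 ± 0.148 (edgeR adjusted p = 1.5e-05), with differences within the 3 mice of 1.62, 1.70 and 1.20. Of the 6 tested Id and E protein genes, Id2 was higher, Id3 lower and 4 were not called. The E protein genes among them were at -0.94 ± 0.38 (Tcf3), -1.40 ± 0.81 (Tcf4) and -0.40 ± 0.20 (Tcf12). For Tcf3 the value was -0.18 without Id3+ eTR of mouse 84, whose library had 143 CPM against 35.8 and 57.9 CPM in the other Id3+ eTR libraries.

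Effector and lineage transcription factors included 7 higher genes and none lower among 23 tested, with a list median of 0.98 on the log2 scale. At an unadjusted p under 0.05, edgeR had 16 higher and 1 lower. Over all genes, 2034 of 12445 passed that threshold in either direction, and the unadjusted counts of every list are to be read beside that share. Prdm1, which encodes Blimp-1, a repressor that promotes terminal differentiation of lymphocytes, stood at 160.4, 184 and 219 CPM in Id3- eTR and at 24.8, 16.7 and 25.3 CPM in Id3+ eTR. All 3 Id3- eTR libraries lay above all Id3+ eTR libraries, and the difference was 3.07 ± 0.34 (edgeR adjusted p = 5.6e-05). Maf, a factor that drives Il10 in T cells, had 457, 569 and 504 CPM in Id3- eTR against 111, 128 and 174 CPM in Id3+ eTR. The groups were again apart, at 1.89 ± 0.22 (edgeR adjusted p = 7.42e-05).

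Rora, which encodes a retinoid-related orphan receptor, rose too. It averaged 407 ± 62.1 CPM in Id3- eTR and 158 ± 32.3 in Id3+ eTR (SD, n = 3 each), at 1.37 ± 0.20 (edgeR adjusted p = 0.00053). Batf, an AP-1 factor needed by effector TR, was higher by 0.56 ± 0.11 (edgeR adjusted p = 0.00524), a call that ended when the 6 libraries were fitted alone (0.149). The other called members, Tbx21 and Arnt2, lost their calls with single libraries left out. Tbx21 was lost without Id3- eTR of mouse 84 or 86 (edgeR adjusted p of 0.121 and 0.171) or Id3+ eTR of mouse 84, 86 or 87 (0.0963, 0.108 and 0.0892). Arnt2 was lost without Id3- eTR of mouse 84, 86 or 87 (edgeR adjusted p of 0.127, 0.0829 and 0.0731) or Id3+ eTR of mouse 86 or 87 (0.112 and 0.0924), and its log2 fold change of 2.80 was 4.31 without Id3+ eTR of mouse 84. Without Id3+ eTR of mouse 84, 10 members of the list were called higher.

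Transcription factors of resting T cells went the other way, with 6 of 13 lower, none higher and a median of -0.49. Tcf7, which encodes TCF-1, a factor of naive and stem-like T cells, had 194, 204 and 166 CPM in Id3- eTR against 588, 404 and 438 CPM in Id3+ eTR. Every Id3- eTR library lay below every Id3+ eTR library, and the log2 fold change was -1.34 ± 0.15 (edgeR adjusted p = 4.31e-05). Bach2, a repressor of effector programs, averaged 37.3 ± 1.18 CPM in Id3- eTR and 111 ± 16.9 in Id3+ eTR (SD, n = 3 each), at -1.57 ± 0.18 (edgeR adjusted p = 5.6e-05). Satb1, a chromatin organizer of T cells, had 109.7, 120.1 and 109 CPM in Id3- eTR against 331, 325 and 328 CPM in Id3+ eTR. Both groups were tight, and the difference was -1.54 ± 0.13 (edgeR adjusted p = 1.88e-06). Lef1, the close relative of Tcf7, fell by 0.83 and Foxp1, a factor of quiescence, by 0.73 on the log2 scale (SE 0.09 and 0.10; edgeR adjusted p = 3.65e-05 and 0.00022). Foxo1 was the sixth call (edgeR adjusted p = 0.0389), and it was lost without any 1 of 5 libraries: Id3- eTR of mouse 84, 86 or 87 (0.156, 0.056 and 0.109) or Id3+ eTR of mouse 84 or 86 (0.152 and 0.0977).

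Promoter sequences are shown for 4 called genes, to set letters that E proteins and AP-1 factors are known to bind beside these differences. They come from RefSeq (build GRCm38.p6) and run from 250 bases before to 50 bases after the start of the gene, 5′ to 3′ on the gene's strand. Prdm1 lies at chr10:44458699-44458998 (minus strand) and Id2 at chr12:25096043-25096342 (minus). Fgl2, a secreted mediator of TR higher in Id3- eTR, lies at chr5:21372423-21372722 (plus), and Nsg2, a recirculating T cell gene lower in Id3- eTR, at chr11:32000169-32000468 (plus). Capitals mark the letters CAGNTG (an E-box, N any base) or TGANTCA (an AP-1 site) on either strand. The 4 genes were picked because their windows held a match, Prdm1 and Fgl2 for an AP-1 site and Id2 and Nsg2 for an E-box. That they hold these matches is therefore no finding about the called genes.
Prdm1: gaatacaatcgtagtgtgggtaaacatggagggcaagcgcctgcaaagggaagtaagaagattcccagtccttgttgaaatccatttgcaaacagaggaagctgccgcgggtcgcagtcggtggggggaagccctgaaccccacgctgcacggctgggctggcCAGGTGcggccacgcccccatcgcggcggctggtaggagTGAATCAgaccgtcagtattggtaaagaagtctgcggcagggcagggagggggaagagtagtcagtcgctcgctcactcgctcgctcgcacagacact
Id2: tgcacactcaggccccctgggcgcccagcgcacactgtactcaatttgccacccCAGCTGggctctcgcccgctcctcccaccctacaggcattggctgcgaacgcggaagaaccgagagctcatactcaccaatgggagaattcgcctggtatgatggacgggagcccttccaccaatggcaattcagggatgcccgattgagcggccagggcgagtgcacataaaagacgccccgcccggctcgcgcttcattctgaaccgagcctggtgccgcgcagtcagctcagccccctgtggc
Fgl2: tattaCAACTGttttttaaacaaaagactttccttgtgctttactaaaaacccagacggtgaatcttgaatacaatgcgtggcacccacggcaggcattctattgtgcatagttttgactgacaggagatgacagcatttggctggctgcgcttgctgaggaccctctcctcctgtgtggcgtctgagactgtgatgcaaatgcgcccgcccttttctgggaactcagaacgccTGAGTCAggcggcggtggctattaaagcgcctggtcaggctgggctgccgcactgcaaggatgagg
Nsg2: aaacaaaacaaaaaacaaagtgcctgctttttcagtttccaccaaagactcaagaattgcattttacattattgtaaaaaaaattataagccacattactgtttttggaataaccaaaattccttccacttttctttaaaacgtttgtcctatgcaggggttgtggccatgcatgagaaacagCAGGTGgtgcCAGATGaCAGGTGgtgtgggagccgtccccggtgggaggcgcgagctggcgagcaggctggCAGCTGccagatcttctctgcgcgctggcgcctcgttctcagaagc
Prdm1 held an E-box at -87 and an AP-1 site at -48 from its start, and Fgl2 an E-box at -245 and an AP-1 site at -16. The Id2 window held an E-box at -196, and that of Nsg2 4 E-boxes, at -67, -57, -50 and 5. A RefSeq promoter was matched by symbol to 8841 of the tested genes. An E-box was found in 59.0% of 139 higher genes and 49.1% of 167 lower genes, against 42.8% of all 8841. An AP-1 site was found in 10.8% of the higher and 3.59% of the lower genes, against 4.59% of all. CTTTGAT, which TCF-1 and LEF-1 can bind, was found in 6.47% and 2.40%, against 2.45% of all. Both strands were searched. Matches of different motifs can share letters, which none did in the 4 promoters shown, and a match describes letters, not binding.

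Chemoattractant receptors, which steer cells in tissue, held the largest fitted difference of any list. Of 23 tested, 9 were higher and 2 lower (Ccr7 and S1pr1), and the median was 1.42. Ccr2, the receptor for monocyte chemoattractants, had 307, 375 and 257 CPM in Id3- eTR and 1 count in each Id3+ eTR library. From 2389 counts in Id3- eTR and 3 in Id3+ eTR, the ratio of CPM was 820.3-fold (95% counting interval 280.4 to 3981; edgeR adjusted p = 7.62e-10). Intervals and floors of this kind cover counting error only. Ltb4r1, the receptor of leukotriene B4, had 280 counts in Id3- eTR and 1 in Id3+ eTR, a ratio of 288.4 (51.4 to 11430). Ccr1 had 150 counts in Id3- eTR and 0 in Id3+ eTR, so that it was at least 51.5-fold higher with the floor of 3 counts over the group. Near-absence from Id3+ eTR was thus shared by these 3 receptor genes.

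Cxcr6, a receptor of tissue-seeking lymphocytes, had 205, 306 and 312 CPM in Id3- eTR against 4.36, 0 and 21.4 CPM in Id3+ eTR. The groups did not overlap, and the log2 fold change was 4.998 ± 0.652 (edgeR adjusted p = 0.00023), or 6.82 without Id3+ eTR of mouse 87. Ccr3, the eotaxin receptor, stood at 62.1 ± 15.5 CPM in Id3- eTR and 5.77 ± 1.84 in Id3+ eTR (SD, n = 3 each), higher by 3.41 ± 0.62 (edgeR adjusted p = 0.00552). Ccr4, a receptor of skin-homing and type 2 cells, was higher by 2.29 ± 0.42 (edgeR adjusted p = 0.00432). Ccr6, the receptor of Ccl20, was higher by 1.29 ± 0.28 (edgeR adjusted p = 0.0144), a call lost without Id3- eTR of mouse 86 (0.0893) or Id3+ eTR of mouse 84 or 86 (0.0525 and 0.0606). Cxcr3, a receptor of type 1 responses, had 445, 435 and 425 CPM in Id3- eTR against 169, 173 and 137 CPM in Id3+ eTR, at 1.45 ± 0.28 (edgeR adjusted p = 0.00703). Cxcr3 therefore had a clear level in Id3+ eTR as well, unlike Ccr2. In Id3+ cTR, Cxcr3 stood at 4.79 ± 1.82 CPM and Ccr4 at 0.628 ± 0.617 (SD, n = 3). Among 20 tested integrin and selectin ligand genes edgeR called 1 higher and 0 lower, with 6 higher and 1 lower at an unadjusted p under 0.05. By limma-voom 3 were higher, and by DESeq2 3 were higher and 1 lower. The edgeR call was Itga1, with 69 counts in Id3- eTR and 0 in Id3+ eTR, at least 23.7-fold higher. That call was lost with each of 5 libraries left out: Id3- eTR of mouse 86 or 87 (edgeR adjusted p of 0.0692 and 0.0818) or Id3+ eTR of mouse 84, 86 or 87 (0.07, 0.0624 and 0.0584).

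Genes of recirculating T cells were lower for 10 of 22 and higher for none, with a median of -0.91. At an unadjusted p under 0.05, edgeR had 13 lower and 2 higher, and limma-voom, DESeq2 and the fit with the mouse as a block each called 2 higher. Ccr7, the receptor that brings T cells into lymphoid zones, had 102, 115 and 69.5 CPM in Id3- eTR against 410.1, 397 and 351 CPM in Id3+ eTR. The groups lay far apart, at -2.02 ± 0.16 (edgeR adjusted p = 1.34e-06).

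Igfbp4 encodes a binding protein of insulin-like growth factors and had 5.04, 4.24 and 0 CPM in Id3- eTR against 179, 109.5 and 72.7 CPM in Id3+ eTR. It was lower by 5.32 ± 0.51 (edgeR adjusted p = 1.09e-05), and the value ran from -6.01 without Id3- eTR of mouse 84 to -4.68 without Id3- eTR of mouse 87. Nsg2, whose product sorts vesicles in neurons, had 9.35, 11.8 and 11.47 CPM in Id3- eTR against 114, 79.4 and 127 CPM in Id3+ eTR. This was the smallest adjusted p of the list, 2.57e-07 by edgeR, with a difference of -3.29 ± 0.22. Evl, an actin regulator, was at -1.24 ± 0.13, Pecam1, the adhesion molecule CD31, at -1.03 ± 0.17, and Treml2, an activating receptor, at -2.47 ± 0.38 (edgeR adjusted p = 2.02e-05, 0.00159 and 0.000961). Ly6c1 was at -2.32 ± 0.29 (edgeR adjusted p = 0.000159), and its assignment is uncertain because Ly6c2, at 1.63 ± 0.95 and not called, is a near-identical copy. S1pr1, the receptor used to leave lymphoid organs, was lower by 0.78 ± 0.13 (edgeR adjusted p = 0.00166), and Dapl1 by 4.82 ± 0.80 (0.00194; -8.60 without Id3- eTR of mouse 84 and -4.21 without that of mouse 87). These last calls ended when the 6 libraries were fitted alone, at edgeR adjusted p values of 0.0633 and 0.0592.

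**Figure D3:**
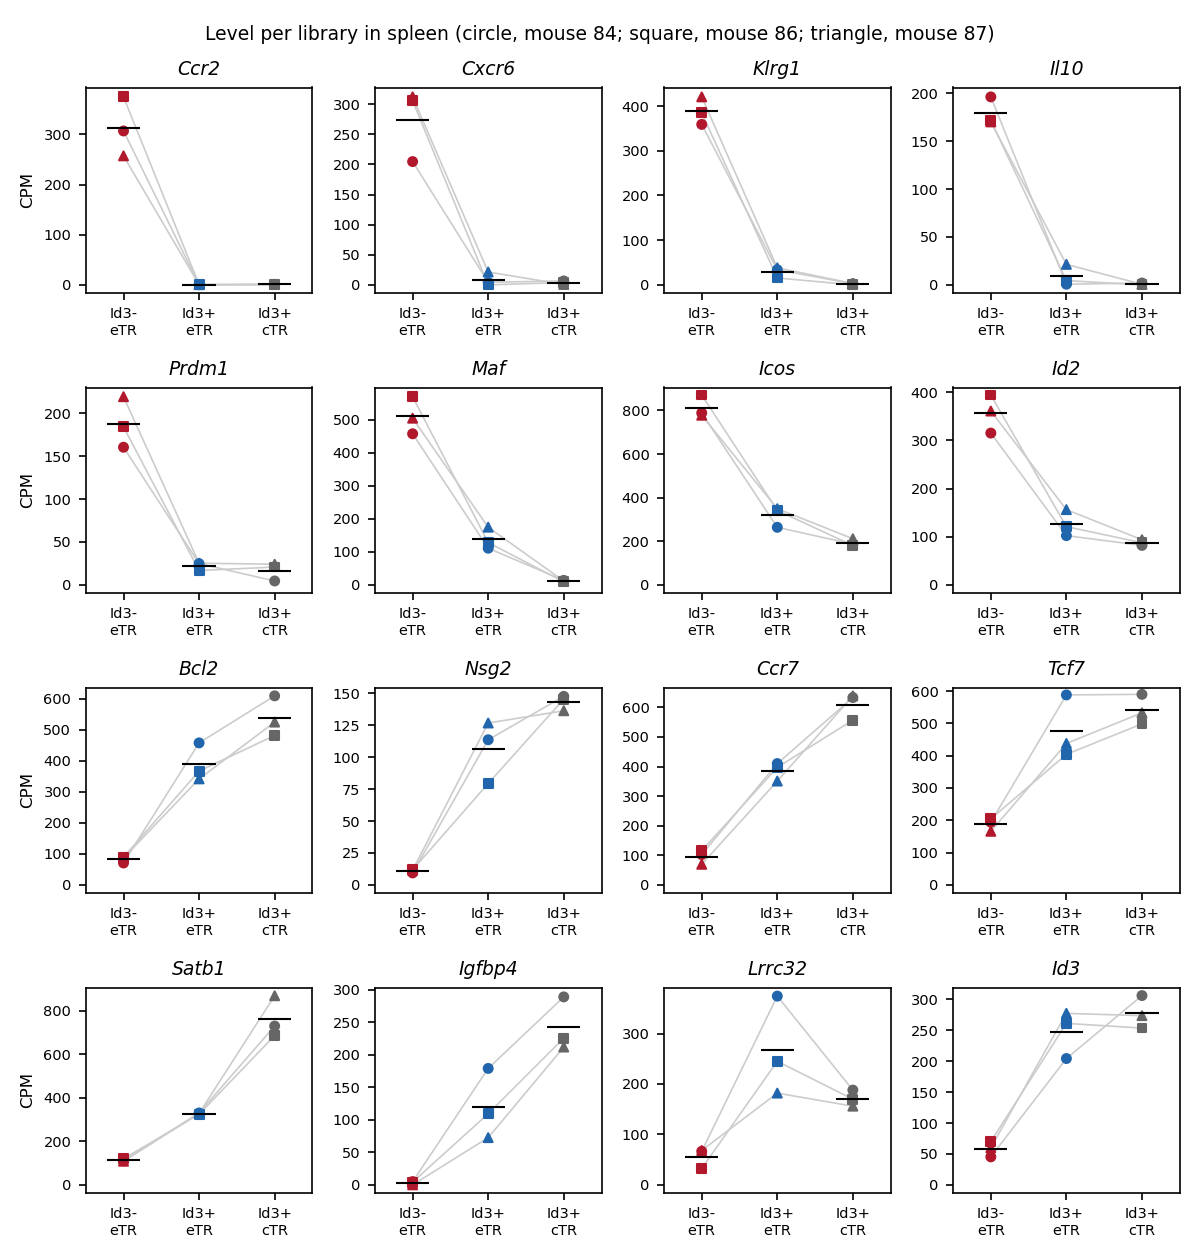
Level in CPM (y axis, starting near 0) of 16 genes in each spleen library of Id3- eTR (red), Id3+ eTR (blue) and Id3+ cTR (grey), with marker shapes for mice 84, 86 and 87, grey lines joining libraries of 1 mouse and black bars for group means. In every panel the 3 Id3- eTR libraries lie wholly above or wholly below the 3 Id3+ eTR libraries.

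The plot of levels by library also places both effector groups beside Id3+ cTR. Ccr2 had 0.377 ± 0.0374 CPM in Id3+ eTR and 0.761 ± 0.428 in Id3+ cTR (SD, n = 3 each), and Prdm1 22.2 ± 4.82 and 16.5 ± 10.4. For these genes Id3+ eTR and Id3+ cTR lay close together, and Id3- eTR apart. Maf had 510.3 ± 56.2 CPM in Id3- eTR, 138 ± 32.9 in Id3+ eTR and 11.52 ± 2.24 in Id3+ cTR. Satb1 had 113 ± 6.26, 328 ± 2.99 and 762 ± 95.5 CPM in the same groups. Over the 190 higher genes, the median of the group mean log2 CPM was 7.08 in Id3- eTR, 5.50 in Id3+ eTR and 4.55 in Id3+ cTR. Over the 218 lower genes it was 5.65, 6.81 and 6.83, and over all genes tested 5.41, 5.46 and 5.29.

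Secreted and suppressive mediators were higher for 8 of 21 tested and lower for none, with a median of 1.42. At an unadjusted p under 0.05, edgeR had 12 higher and 0 lower. Il10, an anti-inflammatory cytokine of effector TR, had 196, 171 and 170.0 CPM in Id3- eTR against 0.670, 4.48 and 21.4 CPM in Id3+ eTR. Id3+ eTR varied widely but stayed below Id3- eTR, and the log2 fold change was 4.36 ± 0.62 (edgeR adjusted p = 0.00049), or 6.17 without Id3+ eTR of mouse 87. Gzmb, the protease granzyme B, had 64.4, 103 and 116 CPM in Id3- eTR against 4.02, 0.407 and 2.72 CPM in Id3+ eTR. It was higher by 5.23 ± 0.84 (edgeR adjusted p = 0.00155), or 5.86 without Id3+ eTR of mouse 84. Fgl2, a secreted fibrinogen-like protein that suppresses T cells, stood at 108, 127 and 185 CPM in Id3- eTR and at 13.4, 12.2 and 6.995 CPM in Id3+ eTR.

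The log2 fold change of Fgl2 was 3.68 ± 0.59 (edgeR adjusted p = 0.00134). Ccl5, a chemokine that attracts T cells, had 168, 175 and 175 CPM in Id3- eTR against 10.1, 20.8 and 24.9 CPM in Id3+ eTR, at 3.22 ± 0.56 (edgeR adjusted p = 0.00276). The groups did not overlap. Metrnl, a secreted meteorin-like protein, stood at 59.6 ± 7.97 CPM in Id3- eTR and 2.35 ± 1.97 in Id3+ eTR (SD, n = 3 each), at 4.66 ± 0.86 (edgeR adjusted p = 0.00617), or 5.43 without Id3+ eTR of mouse 87. Gzma was lost without Id3- eTR of mouse 86 or 87 (edgeR adjusted p of 0.136 and 0.158) or Id3+ eTR of mouse 86 or 87 (0.127 and 0.115). Areg was lost without Id3- eTR of mouse 84 or 87 (edgeR adjusted p of 0.0635 and 0.0655) or Id3+ eTR of mouse 84 or 86 (0.0666 and 0.0634), and Lgals1 without Id3- eTR of mouse 86 (0.0622). Tgfb1, the suppressive cytokine TGF-beta 1, was at -0.17 ± 0.33 and was not called (edgeR adjusted p = 0.859). Of 13 cytotoxic and NK-associated genes, 6 were higher and none lower. They include Nkg7, a granule protein, at 147 ± 27.9 CPM in Id3- eTR and 46.6 ± 5.01 in Id3+ eTR (SD, n = 3 each), a difference of 1.66 ± 0.33 (edgeR adjusted p = 0.00767). Prf1, which encodes perforin, was at -1.66 ± 0.93 and not called (0.395).

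Among 15 inhibitory receptors, 4 were higher and 1 lower, with a median of 0.31. Klrg1, a receptor of terminally differentiated lymphocytes, had 359, 385 and 420.5 CPM in Id3- eTR against 33.8, 15.5 and 38.1 CPM in Id3+ eTR. It was higher by 3.73 ± 0.35 (edgeR adjusted p = 1.08e-05) with no overlap between the groups. Tigit, a receptor for nectins, had 285, 245 and 275 CPM in Id3- eTR against 72.0, 87.9 and 101 CPM in Id3+ eTR, at 1.63 ± 0.23 (edgeR adjusted p = 0.000443). Cd200r1, the receptor of CD200, was higher by 1.12 ± 0.15 (edgeR adjusted p = 0.000371), while Cd200 itself was lower by 0.79 ± 0.16 (0.0102; 0.125 with the 6 libraries fitted alone). Ctla4, the receptor for CD80 and CD86, was higher by 0.46 ± 0.10 (edgeR adjusted p = 0.0186). That call was lost without Id3+ eTR of mouse 84 (0.0564) or Id3- eTR of mouse 86 (0.0909).

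Costimulatory and TNF family genes gave 3 higher and 1 lower of 20, with a median of 0.19. Icos, a costimulatory receptor of effector TR, had 788, 871 and 778 CPM in Id3- eTR against 264, 341 and 349 CPM in Id3+ eTR. All 3 mice showed the difference, at 1.57, 1.35 and 1.15 within mice, and the fit gave 1.35 ± 0.11 (edgeR adjusted p = 1.14e-06). Slamf1, a homotypic receptor of lymphocytes, was higher by 0.78 ± 0.13 (edgeR adjusted p = 0.00179). Fasl, the ligand that triggers death through Fas, was higher by 1.02 ± 0.27 (edgeR adjusted p = 0.045). That call was lost without Id3- eTR of mouse 86 or 87 (0.0582 and 0.247) or Id3+ eTR of mouse 84 or 86 (0.107 and 0.128), by limma-voom (0.0541) and with the mouse as a block (0.0595), and without Id3- eTR of mouse 87 the difference was 0.64. Fas was the lower gene, at -0.65 ± 0.17 (edgeR adjusted p = 0.0402), although its groups overlapped. It was lost without Id3- eTR of mouse 84 or 86 (0.121 and 0.147) or Id3+ eTR of mouse 86 or 87 (0.14 and 0.0811), and by limma-voom (0.0912). NF-kB subunits and feedback genes gave 0 calls of 17 by edgeR, 5 at an unadjusted p under 0.05 (2 higher and 3 lower), and 0 by limma-voom and DESeq2.

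Of 28 cytokine receptor genes, 3 were higher and 1 lower. Il1rl1, the receptor of the alarmin IL-33 on tissue TR, had 127, 128 and 95.6 CPM in Id3- eTR against 26.5, 23.6 and 29.5 CPM in Id3+ eTR. The groups were apart, at 2.13 ± 0.32 (edgeR adjusted p = 0.000749). Il18r1, a chain of the IL-18 receptor, had 207, 266 and 265 CPM in Id3- eTR against 67.0, 102 and 63.7 CPM in Id3+ eTR, at 1.67 ± 0.25 (edgeR adjusted p = 0.000749). The other calls depended on single libraries. Ifngr1, an interferon gamma receptor chain, was higher by 0.36 ± 0.08 (edgeR adjusted p = 0.0173), lost without Id3- eTR of mouse 86 or 87 (0.0776 and 0.0642). Il6ra, the IL-6 receptor, was lower by 1.07 ± 0.23 (edgeR adjusted p = 0.0136), lost without Id3- eTR of mouse 84 or 87 (0.066 and 0.0817) or Id3+ eTR of mouse 84 (0.0507). The list median was 0.12. Socs2, a feedback inhibitor of cytokine signals, was the 1 called gene of 12 STAT feedback genes, higher by 0.96 ± 0.19 (edgeR adjusted p = 0.00774), a call that ended with the 6 libraries fitted alone (0.164).

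Core TR genes gave calls both ways, with 3 higher, 4 lower and 11 not called of 18, but the higher calls depended on the fit. The list had 4 higher and 4 lower by limma-voom, 4 and 6 by DESeq2, and 3 and 4 with the mouse as a block. With the 6 libraries fitted alone, 0 of the list were higher and 4 lower. Ctla4, Capg and Socs2, the higher genes, then had edgeR adjusted p values of 0.112, 0.0563 and 0.164. Lrrc32, which encodes GARP, the surface carrier of latent TGF-beta on activated TR, had 66.5, 32.5 and 68.1 CPM in Id3- eTR against 374, 245 and 182 CPM in Id3+ eTR. It was lower by 2.25 ± 0.28 (edgeR adjusted p = 0.000158), and its level in Id3+ cTR was 171 ± 16.0 CPM (SD, n = 3). Gpr83, a receptor of TR, stood at 86.5 ± 23.8 CPM in Id3- eTR and 260.1 ± 37.0 in Id3+ eTR (SD, n = 3 each), at -1.59 ± 0.18 (edgeR adjusted p = 5.25e-05). Ecm1, a secreted matrix protein, stood at 88.0 ± 18.6 CPM in Id3- eTR and 257 ± 34.0 in Id3+ eTR, at -1.54 ± 0.15 (edgeR adjusted p = 1.08e-05). Swap70, a signalling protein of lymphocytes, was lower by 1.08 ± 0.25 (edgeR adjusted p = 0.0219), a call lost without Id3- eTR of mouse 84, 86 or 87 (0.0617, 0.0843 and 0.0817) or Id3+ eTR of mouse 84 (0.0769). Il2ra, Ikzf2 and Nrp1, other genes of the TR list, were at -0.51 ± 0.16, 0.47 ± 0.14 and -0.07 ± 0.09 and were not called (edgeR adjusted p = 0.102, 0.0706 and 0.767).

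Bcl2, which blocks cell death at mitochondria, had 70.5, 89.0 and 86.9 CPM in Id3- eTR against 458, 367 and 342 CPM in Id3+ eTR. The groups did not overlap, and the log2 fold change of -2.25 ± 0.13 had an edgeR adjusted p of 3.23e-08. In Id3+ cTR the level was 538 ± 65.0 CPM (SD, n = 3). Of the other 11 tested Bcl2 family genes, Bcl2l11, which encodes the death-promoting protein BIM, was lower too. That call was lost without Id3- eTR of mouse 84 or 86 (edgeR adjusted p of 0.112 and 0.0827) or Id3+ eTR of mouse 84 (0.0856). Mki67, a marker of cycling cells, had 129, 54.6 and 86.2 CPM in Id3- eTR against 10.7, 10.6 and 11.7 CPM in Id3+ eTR. It was higher by 3.03 ± 0.47 (edgeR adjusted p = 0.000983) and the 1 called gene of 35 proliferation genes, whose median was 1.10. At an unadjusted p under 0.05, 10 of them were higher and 1 lower.

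S100, annexin and cytoskeletal genes were higher for 8 of 22 and lower for 1, with a median of 0.56. S100a4, a calcium-binding protein of motile cells, had 147, 185 and 141 CPM in Id3- eTR against 28.5, 36.2 and 38.9 CPM in Id3+ eTR. The difference was 2.19 ± 0.22 (edgeR adjusted p = 2.02e-05) with no overlap. S100a6, its neighbour in the family, was higher by 1.65 ± 0.21 (edgeR adjusted p = 0.000188), and Ahnak, a large scaffold protein, by 0.996 ± 0.113 (6.18e-05). Other calls were lost with single libraries left out. S100a11 was lost without Id3- eTR of mouse 84 or 86 (edgeR adjusted p of 0.053 and 0.0843) or Id3+ eTR of mouse 84 (0.0666), and Anxa1 without Id3- eTR of mouse 86 or 87 (0.0843 and 0.0621) or Id3+ eTR of mouse 84 or 86 (0.0896 and 0.0568). Anxa2 was lost without any 1 library but Id3+ eTR of mouse 84 (edgeR adjusted p of 0.0582 to 0.15). Cd9, the lower gene, was lost without Id3- eTR of mouse 86 or 87 (edgeR adjusted p of 0.0956 and 0.0888) or Id3+ eTR of mouse 86 or 87 (0.0514 and 0.0687). With the 6 libraries fitted alone, 3 of this list were called higher and 0 lower, and without Id3+ eTR of mouse 84 it was 6 and 1. Of 17 genes that T cell receptor signals induce, 1 was higher and 1 lower, and of 15 follicular TR genes 2 were higher and 1 lower. Rgs1, which dampens chemokine signals, was the higher gene of the T cell receptor list, at 0.61 ± 0.14 (edgeR adjusted p = 0.0188), lost without Id3- eTR of mouse 86 or 87 (0.0931 and 0.057) or Id3+ eTR of mouse 84 (0.0736). Myc, a growth regulator, was the lower gene of the T cell receptor list, at -1.01 ± 0.15 (edgeR adjusted p = 0.000963), a call lost with the 6 libraries fitted alone and the mouse as a block (0.0578).

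Glucose uptake and glycolysis genes gave 0 calls of 19 by edgeR, limma-voom and DESeq2, with 0 higher and 2 lower at an unadjusted p under 0.05. Sterol and fatty acid synthesis genes gave 0 of 22 by edgeR and limma-voom and 1 lower by DESeq2, with 7 lower and 0 higher at an unadjusted p under 0.05 and a median of -0.50. Genes of stress during cell isolation gave 0 of 21 by edgeR and limma-voom and 1 higher by DESeq2, with 4 higher and 1 lower at an unadjusted p under 0.05. Of 24 interferon response genes, edgeR called 1 lower and 0 higher, with 2 lower and 3 higher at an unadjusted p under 0.05, and by limma-voom 1 and by DESeq2 2 were lower. The edgeR call was Usp18, which encodes a protease that removes ISG15, at -1.44 ± 0.34 (edgeR adjusted p = 0.0231). It was lost without Id3- eTR of mouse 84, 86 or 87 (0.0617, 0.0671 and 0.11) or Id3+ eTR of mouse 86 (0.0829). These lists had medians of -0.09 (glycolysis), 0.19 (stress) and 0.10 (interferon). Over all genes tested, 2034 of 12445 had an unadjusted p under 0.05 by edgeR in either direction.

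**Figure D4:**
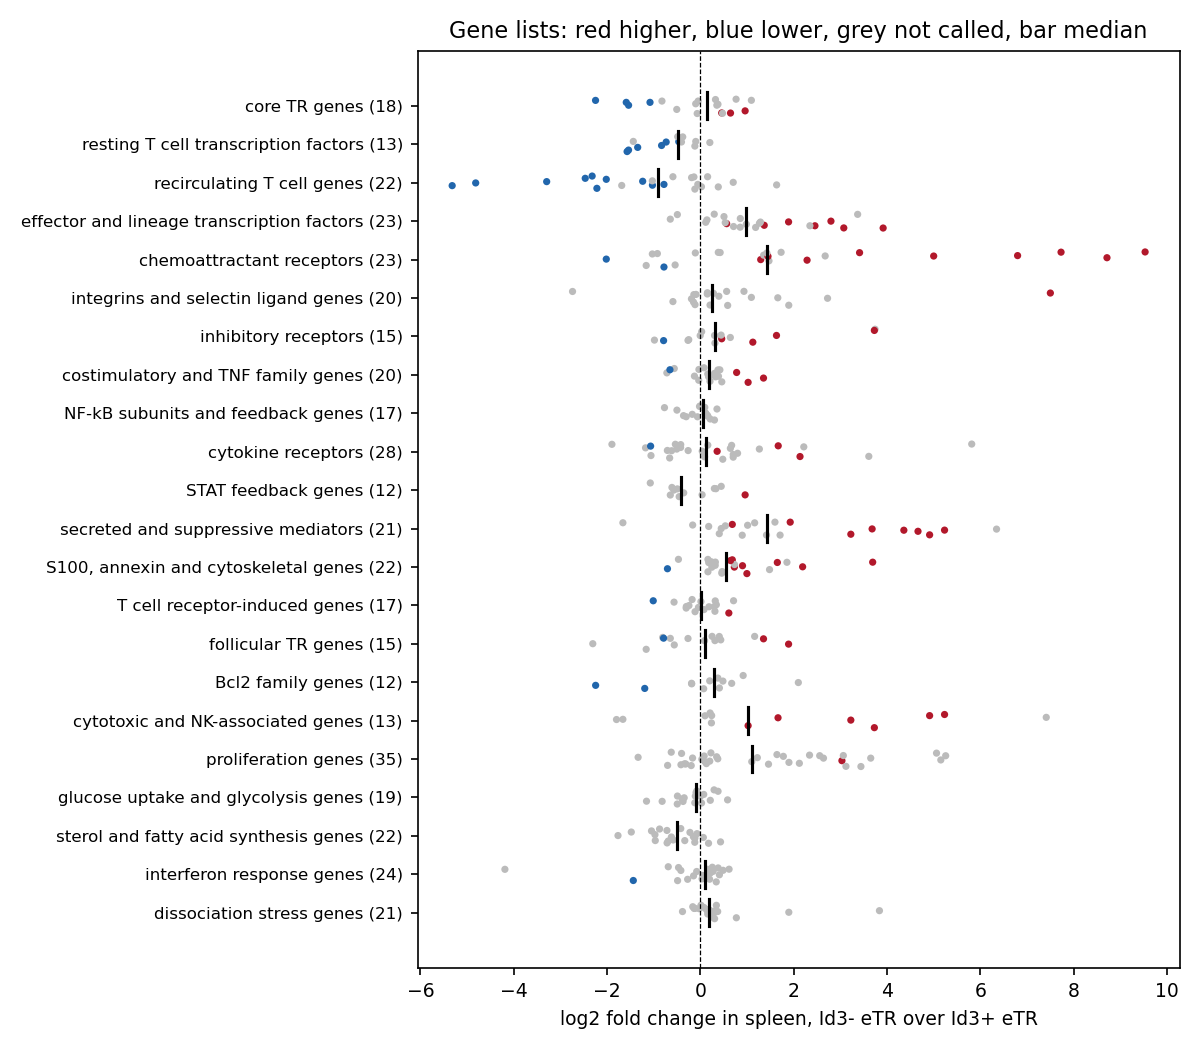
Log2 fold change of each tested gene (points; red called higher, blue called lower, grey not called) in the gene lists, with the number tested in brackets, a black bar at the list median and a dashed line at the median of all genes (-0.01). Chemoattractant receptors and mediators reach far to the right, and recirculating T cell genes far to the left.

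Outside the lists, Neb, which encodes the muscle protein nebulin, had 695, 598 and 757 CPM in Id3- eTR against 58.6, 87.1 and 89.4 CPM in Id3+ eTR. Its difference was 3.13 ± 0.28 (edgeR adjusted p = 4.42e-06), and its level in Id3+ cTR was 148 ± 23.4 CPM (SD, n = 3). Ttn, which encodes the muscle protein titin, had 1313, 1330.0 and 1296 CPM in Id3- eTR against 670.1, 797 and 644 CPM in Id3+ eTR, at 0.90 ± 0.18 (edgeR adjusted p = 0.01). Both muscle genes were thus higher in each Id3- eTR library. Adam8, a membrane protease of leukocytes, had 115, 95.1 and 100.4 CPM in Id3- eTR against 8.04, 1.63 and 0 CPM in Id3+ eTR, at 4.93 ± 0.83 (edgeR adjusted p = 0.00303), or 6.94 without Id3+ eTR of mouse 84. Klrb1f, of a family of similar C-type lectin genes whose reads are hard to assign, was at 4.10 ± 0.74 (edgeR adjusted p = 0.00373), or 4.71 without Id3+ eTR of mouse 86.

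Among the lower genes outside the lists, Lad1, an anchoring filament protein, had 0, 3.30 and 0 CPM in Id3- eTR against 51.3, 48.8 and 44.3 CPM in Id3+ eTR. Its difference was -5.63 ± 0.77 (edgeR adjusted p = 0.00038), and it ran from -9.95 to -4.99 with 1 Id3- eTR library left out, mouse 86 for the first and mouse 87 for the second. Sh3bgrl2 had 1.68 ± 1.59 CPM in Id3- eTR and 58.2 ± 17.4 in Id3+ eTR (SD, n = 3 each), at -5.005 ± 0.611 (edgeR adjusted p = 0.000143), or -6.09 without Id3- eTR of mouse 87. Gucy1a1, a subunit of the nitric oxide receptor, had 1.80, 5.18 and 0.347 CPM in Id3- eTR against 67.0, 37.4 and 45.1 CPM in Id3+ eTR. It was at -4.41 ± 0.78 (edgeR adjusted p = 0.00314), or -5.49 without Id3- eTR of mouse 86, and its level in Id3+ cTR was 15.6 ± 9.85 CPM. Arhgap20, a GTPase-activating protein, was at -4.18 ± 0.65 (edgeR adjusted p = 0.00103; -4.99 without Id3- eTR of mouse 84 and -3.55 without that of mouse 87), and Gabrr2, a GABA receptor subunit, at -3.79 ± 0.39 (2.04e-05). In Id3+ cTR, Gabrr2 had 94.4 ± 9.74 CPM and Arhgap20 105 ± 6.50.

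The same contrast in lymph node, from other libraries of the same 3 mice, called 326 genes (2.62% of those tested), 181 higher (1.45%) and 145 lower (1.17%) in Id3- eTR. Of the higher genes, 95 were called in both tissues, which is 50% of the spleen list and 52.5% of the lymph node list. Of the lower genes it was 78, or 35.8% and 53.8%, and 0 genes were called in opposite directions. Among the spleen calls, 185 of 190 higher and 195 of 218 lower genes had the same sign in lymph node. Their median differences were 1.36 in spleen and 0.93 in lymph node for the higher genes, and -1.26 and -0.65 for the lower genes. Selecting these genes by the spleen test favours large spleen values, so the medians do not show a larger difference in spleen.

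Prdm1, Maf, Cxcr6 and Igfbp4 were called in both tissues, at 4.69 ± 0.38, 1.67 ± 0.21, 5.01 ± 0.63 and -5.03 ± 0.51 in lymph node (edgeR adjusted p = 1.47e-06, 0.000201, 0.000156 and 1.84e-05). Ccr3 was higher in both, with 0 counts in lymph node Id3+ eTR and a bound there of at least 264.3-fold. Neb had 1267, 1233 and 1276 CPM in lymph node Id3- eTR against 56.4, 81.9 and 23.5 CPM in Id3+ eTR, at 4.55 ± 0.29 (edgeR adjusted p = 1.85e-07). Ccl5, by contrast, had 105, 54.8 and 84.1 CPM in lymph node Id3- eTR against 182, 30.5 and 53.3 CPM in Id3+ eTR, where the groups overlapped and it was not called (-0.12 ± 0.50; edgeR adjusted p = 0.968). Nkg7 was at 0.13 ± 0.32, Foxp1 at -0.17 ± 0.09 and Lrrc32 at -0.79 ± 0.26 in lymph node, none of them called.

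A call in 1 tissue alone does not show that the tissues differ, and the interaction of the difference with tissue gave 0 calls by edgeR. At an unadjusted p under 0.05 edgeR had 750 of the 12445 genes tested. A share of about 0.05 would pass that threshold with no difference between tissues at all. For the interaction, limma-voom called 1 gene and DESeq2 29. The smallest edgeR adjusted p for the interaction was 0.0558, shared by Ahcyl2, Itga4, Coro2a and Satb1. In lymph node, Satb1 had 134.4, 129.7 and 97.3 CPM in Id3- eTR against 150.5, 157.3 and 194.9 CPM in Id3+ eTR, which did not overlap. Its difference there was -0.48 ± 0.13, against -1.54 ± 0.13 in spleen. For Ccl5, Foxp1 and Lrrc32 the interaction had edgeR adjusted p values of 0.202, 0.261 and 0.409.

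**Figure D5:**
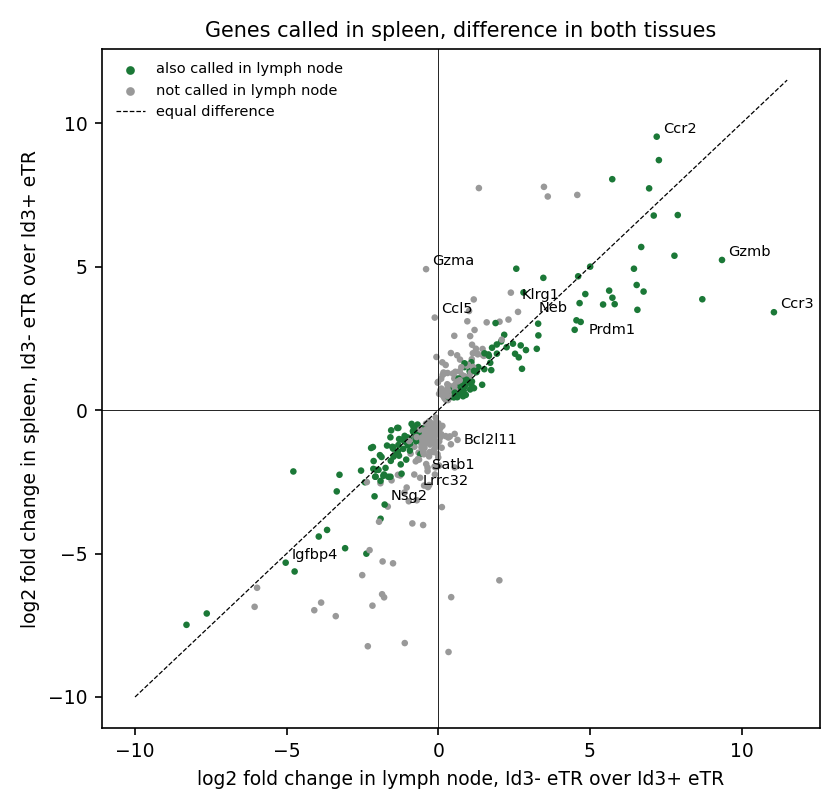
Log2 fold change, Id3- eTR over Id3+ eTR, in lymph node (x axis) and spleen (y axis) for the 408 genes called in spleen, green where lymph node called the gene too and grey where it did not. Most points lie in the lower left and upper right, 185 of 190 higher and 195 of 218 lower genes with the same sign, and the dashed line marks equal differences.

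The TR label was checked against defining markers. The summed level of 8 TR markers ran between 3921 and 4237 CPM in Id3- eTR, against 3276 to 3826 CPM in Id3+ eTR, with none at 0. By edgeR, no marker of other cells was called apart from Pecam1, which T cells also express, while limma-voom and DESeq2 each called 1 B cell gene. The 12 listed B cell genes with a symbol in the table summed to 1210 to 1566 CPM in Id3- eTR, against 1078 to 1250 CPM in Id3+ eTR, mostly Ighm and Cd74, while Pax5 had 2 counts over all 6 libraries. Myeloid and dendritic cell genes summed to 252.7 to 305.1 CPM in Id3- eTR, against 154.1 to 260.0 CPM in Id3+ eTR, mostly Cst3. CD8 T and NK cell genes summed to 35.1 to 49.9 CPM in Id3- eTR, against 61.0 to 102.5 CPM in Id3+ eTR, without overlap, with the NK markers Ncr1 and Klra8 at 0 in all 6. Whether CD8 T or NK cells carry part of the higher Gzmb, Nkg7 and Ccl5 of Id3- eTR was not tested.

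Conventional CD4 T cell cytokine genes summed to 304.0 to 408.7 CPM in Id3- eTR, against 206.1 to 240.2 CPM in Id3+ eTR, without overlap. Ifng led this difference, with 121.6, 166.7 and 136.6 CPM in Id3- eTR against 43.9, 65.9 and 49.4 CPM in Id3+ eTR, at 1.42 ± 0.52 and not called (edgeR adjusted p = 0.166). Of 5 tested genes of that list, edgeR called 0, limma-voom 1 and DESeq2 0, with 2 higher at an unadjusted p under 0.05. Erythroid and platelet genes summed to 29.7 to 134.8 CPM in Id3- eTR, against 10.9 to 146.9 CPM in Id3+ eTR. Gamma delta T cell genes summed to 1.74 to 7.06 CPM in Id3- eTR, against 2.72 to 8.95 CPM in Id3+ eTR, with Sox13 at 0. The stromal and endothelial genes summed to 76.6 to 110.6 CPM in Id3- eTR, against 171.4 to 189.6 CPM in Id3+ eTR, nearly all Pecam1, with Col1a2, Col3a1, Pdgfrb and Cdh5 at 0. The part of other cells in the differences above was not tested beyond these values.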

How the data were processed

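RNA was sequenced from libraries of 500 sorted cells (SMART-Seq v4 and a modified Nextera XT step, per the labels' protocols). The values are read counts per gene as deposited by the authors, not normalized. The submitters' processing notes name FastQC, Bowtie, TopHat, Picard, SAMtools and HTSeq 0.4.1, with no genome build stated. The kit does not mark strand, so reads of overlapping antisense genes cannot be told apart. Symbols were found for 32919 of 37991 gene IDs, and the 5072 without one held 0.891% of the counts.

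Genes with too few counts were dropped (edgeR's filterByExpr, minimum count 10), leaving 12445. Totals ran from 1600782 to 3153325 counts over the 18 libraries. edgeR 4.0.16 (R 4.3.3) fitted all 18 libraries with TMM factors, 1 mean per population and tissue and no block, with 12 residual degrees of freedom, and its robust quasi-likelihood test was adjusted (Benjamini-Hochberg) across the 12445 genes, with calls made below 0.05. Differences are log2 fold changes with SE, and a group with 0 counts was set to a floor of 3 counts over the group. With 1 to 3 counts, the ratio of CPM has a 95% counting interval. limma 3.58.1 (voom), DESeq2 1.42.0 and the other settings below were alternatives, and the code was tested on simulated counts. Pairing comes from the mouse numbers, which mark the same animal, and deviations of same-mouse spleen libraries correlated at 0.079, 0.037 and 0.036.

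The members and lists were chosen with earlier results of these data known. The rule for named genes took the sort genes and Id and E proteins, up to 3 called genes per list by size of change, the 10 higher and 10 lower called genes of largest change outside the lists, the 5 most abundant called genes each way, and 5 genes each way that set Id3+ eTR of mouse 84 apart. All 3 mice had to share the direction of a called gene. Another 32 called genes of the lists (Il10, Batf, Lef1, Foxp1 and S1pr1 among them) and genes not called (Tgfb1, Prf1, Il2ra, Ikzf2, Nrp1 and the cell markers) lie outside that rule, and those described were chosen after their values were seen.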

Additional observations from a re-analysis of the deposited data

How the results depend on the processing

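In spleen, the 408 calls became 751 with DESeq2 (355 higher and 396 lower, 407 of them among the 408), 171 with the 6 libraries fitted alone and 142 with these and the mouse as a block. The replicate block over all libraries gave 381 calls in spleen, 352 of them among the 408, 307 in lymph node and 0 for the interaction. With single libraries left out, spleen counts ran from 267 to 440, lymph node counts from 192 to 235 and interaction counts from 0 to 5. In lymph node the 326 calls became 566 with DESeq2 and 204 with the 6 libraries alone and the block. The interaction had 4 calls with no filter on low counts, 1 with limma-voom and 29 with DESeq2. Other spleen settings gave 408 (RLE size factors), 424 (no filter), 496 (limma-voom, 283 higher and 213 lower) and 404 calls (without 121 genes densest in counts per exonic base, a setting chosen after seeing the data).

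Of 111 genes refitted, 104 were called; 35 of these lost the call with 1 library left out and 12 more under another setting, and no called gene turned direction. With single libraries left out, Foxp3, not called, ran from -0.21 to 0.14, positive without Id3+ eTR of mouse 84. Cd4, not called, ran from -0.10 to 0.24, at -0.02 without Id3- eTR of mouse 86 and at -0.10 without Id3+ eTR of mouse 86 or 87. The causes were not tested. A common coefficient of biological variation of 0.294 limits what 3 libraries per group can show.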

Other observations

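In spleen, Ahcyl2, related to an enzyme of the methionine cycle, was at -1.61 ± 0.16 and in lymph node at -0.30 ± 0.15 (log2 fold change, Id3- eTR over Id3+ eTR, SE). Coro2a, an actin-binding protein, was at -0.69 ± 0.19 in spleen and 0.92 ± 0.19 in lymph node, and Itga4, the integrin alpha 4 chain, at 0.28 ± 0.12 and -0.72 ± 0.12. The interaction with tissue was not called for any of these by edgeR (adjusted p = 0.0558).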
